A study of Schizosaccharomyces pombe with 16 samples.

Results

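The Sty1 stress MAP kinase pathway was followed through its 8 core genes, mcs4, wis1, sty1, atf1, pcr1, pyp1, pyp2 and srk1, which were picked by gene identifier out of the 7019 genes in the count table. The fission yeast Schizosaccharomyces pombe was profiled by RNA-seq in 16 libraries that fall into 8 groups of 2 replicates. Wilmar-A, a wild isolate, and Wilmar-P, the production isolate obtained from it by passage through molasses fermentations, are both h90 and were each grown for 4 h in rich medium with 3% glucose (glucose), with 3% glycerol and 0.1% glucose (glucose-deficient) or with 3% glycerol alone (glucose-starved). Wilmar-P and the laboratory strain 972h- (mating type h-) were also grown for 4 h in molasses medium. Before transfer the cells of every group had grown in rich medium with 3% glucose. No group carries an engineered allele, each isolate is a single strain, and reads of all strains were mapped to the laboratory reference genome. The labels do not say whether replicates were separate cultures, so the p-values measure only the spread between these libraries, which may be technical.

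Sty1 is the stress-activated MAP kinase of fission yeast. A histidine phosphorelay that ends in the response regulator Mcs4 passes stress signals to the MAP kinase kinase kinases Wis4 and Win1, these to the MAP kinase kinase Wis1, and Wis1 phosphorylates Sty1. Active Sty1 acts in the nucleus through the bZIP transcription factors Atf1 and Pcr1 and on the kinase Srk1, while the tyrosine phosphatases Pyp1 and Pyp2 remove its activating phosphate. RNA-seq reads transcript levels only and not the phosphorylation of these proteins.

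All 8 genes passed the filter on low counts and were among the 6662 genes tested. The libraries held 13246648 to 18164249 counts, with a median of 14363853, so that 3 counts equal 0.165 to 0.227 counts per 1000000 (CPM). Levels are given as CPM after normalization by the trimmed mean of M values (TMM), always in the order replicate 1, replicate 2. They are shares of a library of bulk RNA, in which fewer cells of a type and less RNA per cell cannot be told apart. A gene was called where the log2 fold change exceeded 1 in size and the adjusted p-value (edgeR quasi-likelihood test, Benjamini-Hochberg over all tested genes) was under 0.05. Labelled unstranded were 3 libraries, namely replicate 1 of both isolates in glucose-deficient medium and of Wilmar-P in glucose. Replicate 1 of Wilmar-A in glucose is labelled stranded, yet non-coding RNA genes took 8.76% of its counts, against 8.44% to 8.60% in the 3 labelled unstranded and 1.2% to 2.43% in the other 12. Ribosomal RNA genes took 9.77% of the counts in replicate 2 of Wilmar-P on molasses and 0.22% to 2.68% elsewhere.

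The pathway divided into 4 genes whose transcripts were high only in the 4 glucose-starved libraries, atf1, pcr1, pyp2 and srk1, and 4 whose level varied less. Over all 16 libraries the highest level was 96.4 times the lowest for pyp2, 33.9 times for srk1, 15.1 times for atf1 and 9.37 times for pcr1. The same ratio was 2.71 for sty1, 2.37 for mcs4, 2.30 for pyp1 and 1.91 for wis1. Per kilobase of transcript, sty1 was the most abundant of the 8 genes in every group, with group means from 146.3 CPM per kb in Wilmar-P on molasses to 305.9 CPM per kb in starved Wilmar-A. pyp2 moved from the lowest place, 4.79 CPM per kb in glucose-deficient Wilmar-P, to 242.5 CPM per kb in starved Wilmar-A, which was second to sty1.

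**Figure D1:**
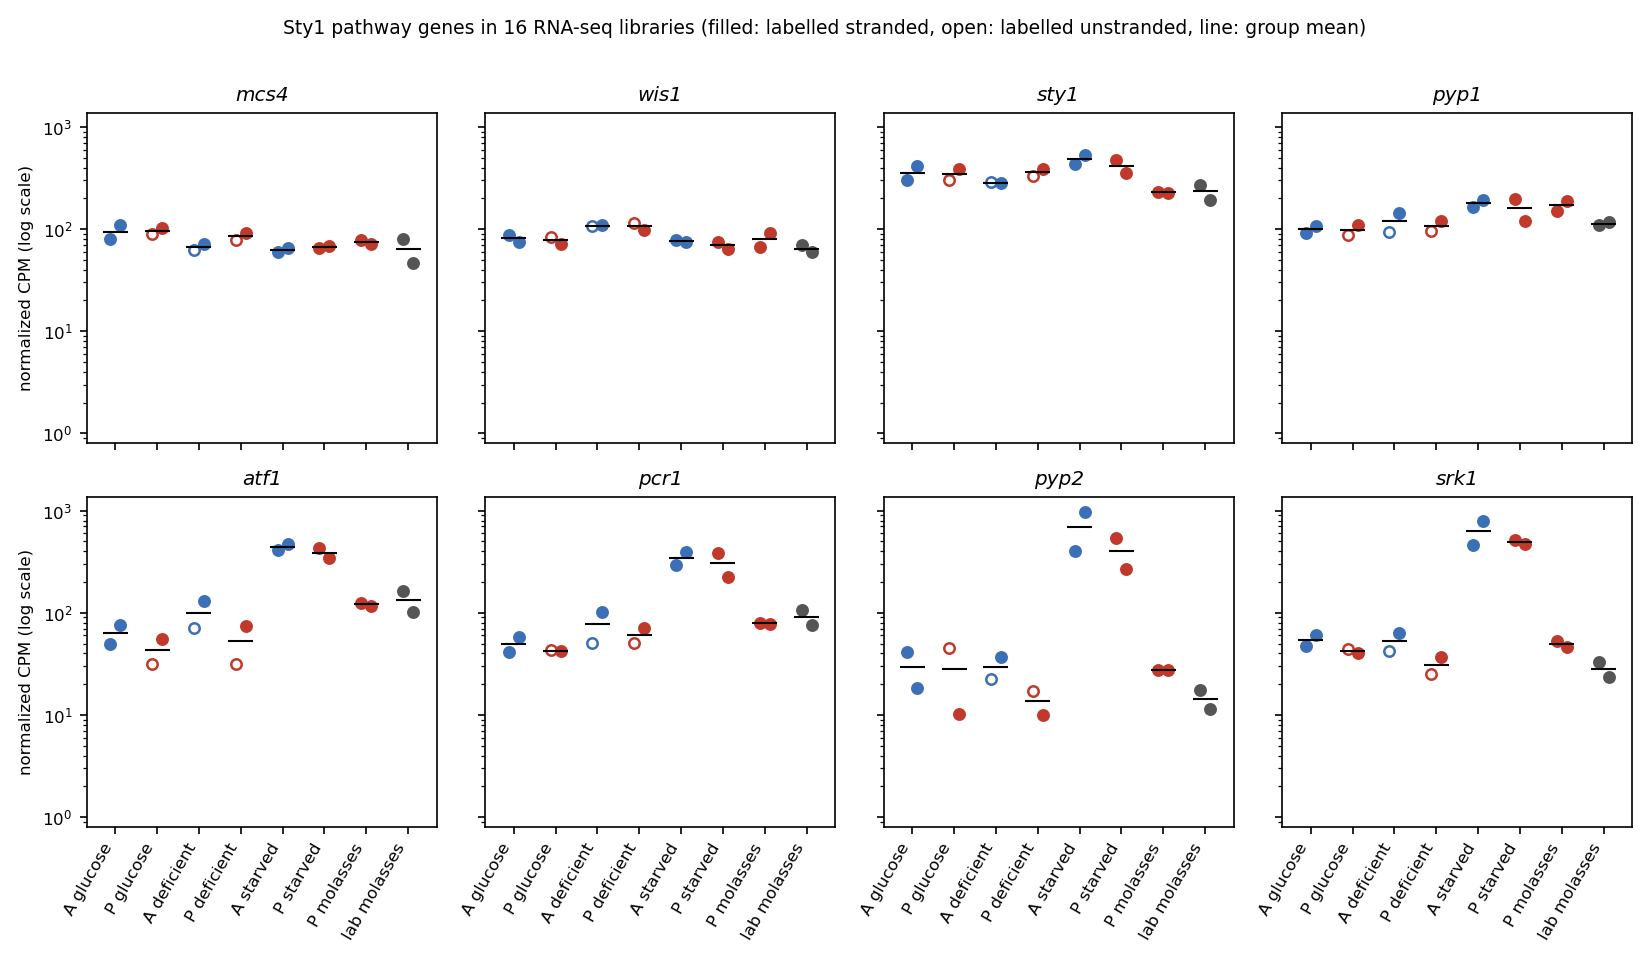
Level of each pathway gene in the 16 libraries, as TMM-normalized CPM on a log axis, by strain and medium (A, Wilmar-A in blue; P, Wilmar-P in red; lab, laboratory strain in grey). Points are single libraries, open where labelled unstranded, and lines are group means; atf1, pcr1, pyp2 and srk1 stand apart in the starved groups, where pyp2 reached 969 CPM, while mcs4, wis1, sty1 and pyp1 stayed within a 2.71-fold range.

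The relay that leads to Sty1 was described first. mcs4 (SPBC887.10, chromosome II, 3557090 to 3559137, plus strand; all gene coordinates are those of the count table on assembly ASM294v2, from the first to the last exon base) encodes the response regulator. Its level was 79.6 and 109 CPM in Wilmar-A and 89.3 and 103 CPM in Wilmar-P in glucose. After starvation it was 59.1 and 65.2 CPM in Wilmar-A and 65.8 and 68.8 CPM in Wilmar-P. Every starved library was thus below every glucose library of the same isolate, but the log2 fold changes of -0.60 (SE 0.24, adjusted p = 0.0623 by edgeR) in Wilmar-A and -0.62 (SE 0.26, adjusted p = 0.0928) in Wilmar-P did not pass the test. In the remaining groups mcs4 ranged from 46.2 CPM, in the laboratory strain on molasses, to 92 CPM.

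wis1 (SPBC409.07c, chromosome II, 1143731 to 1146633, minus strand) encodes the MAP kinase kinase. It was at 88.2 and 75 CPM in Wilmar-A and 84.5 and 72.1 CPM in Wilmar-P in glucose, and at 77.5, 74.6, 74.8 and 63.4 CPM in the 4 starved libraries. These ranges overlapped, and the log2 fold change was -0.10 in both isolates (adjusted p = 0.685 in Wilmar-A and 0.756 in Wilmar-P by edgeR). The highest wis1 levels were those in glucose-deficient medium, 107.4 and 108.8 CPM in Wilmar-A and 115 and 97.4 CPM in Wilmar-P, which lay above the glucose libraries of the same isolate by a log2 fold change of 0.33 and 0.44 (adjusted p = 0.274 and 0.266). Neither difference passed the test.

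sty1 itself (SPAC24B11.06c, chromosome I, 206476 to 208044, minus strand) was at 299.8 and 414 CPM in Wilmar-A and 300.4 and 388 CPM in Wilmar-P in glucose. In starved cells sty1 was at 434 and 526 CPM in Wilmar-A and 470.3 and 351 CPM in Wilmar-P. The Wilmar-A groups did not overlap and the Wilmar-P groups did. The log2 fold change was 0.43 (95% interval -0.13 to 0.98, adjusted p = 0.179 by edgeR) in Wilmar-A and 0.17 (-0.42 to 0.77, adjusted p = 0.671) in Wilmar-P, so that a log2 fold change of 1 lay outside both intervals. Scaled to total counts in place of TMM, as a ratio of group means, the Wilmar-P value was -0.17 and the Wilmar-A value -0.03. The direction of sty1 thus depended on the scaling. Scaled in this way, mcs4 came to -1.06 in Wilmar-A and -0.95 in Wilmar-P, and wis1 to -0.58 and -0.62. The genes atf1, pcr1, pyp2 and srk1 kept their direction, at 2.33 to 4.01 over both isolates.

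The lowest sty1 levels were on molasses, 231 and 228 CPM in Wilmar-P and 272 and 195 CPM in the laboratory strain. Both Wilmar-P molasses libraries were below all other Wilmar-P libraries. Against starved Wilmar-P the log2 fold change was -0.84 (SE 0.25, adjusted p = 0.0202 by edgeR), under the size needed for a call, and against glucose it was -0.67 (adjusted p = 0.320).

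The RNA gene on the strand opposite sty1 had counts that tracked the library type. SPNCRNA.622, a long non-coding RNA gene on the plus strand of chromosome I (206775 to 209401), covers 1270 bases of sty1. Its raw count was 6127 to 6799 in the 3 libraries labelled unstranded and 6786 in replicate 1 of Wilmar-A in glucose, where sty1 had 6471. In the other 12 libraries it had 224 to 931 counts, against 2888 to 6570 for sty1 over all libraries. Among those 12, the 4 starved libraries were the highest, with 618 to 931 counts, and replicate 2 in glucose had 319 in Wilmar-A and 306 in Wilmar-P. Without strand information reads of the pair cannot be told apart, and the share of antisense reads in the sty1 counts of these 4 libraries was not tested.

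**Figure D2:**
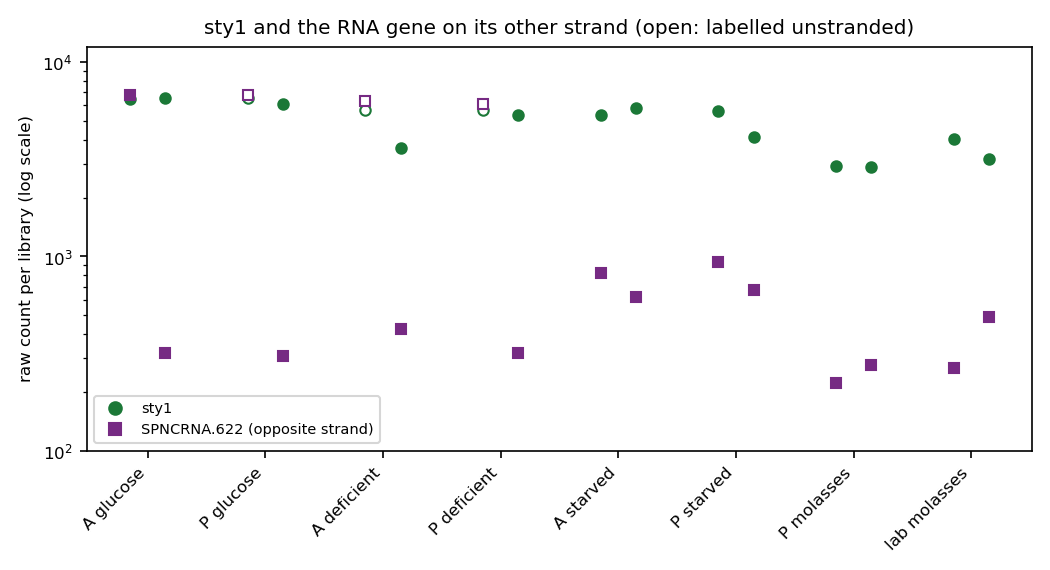
Raw count of sty1 (green circles) and of SPNCRNA.622 on its opposite strand (purple squares) in each library, on a log axis, replicate 1 to the left of replicate 2 and open symbols for libraries labelled unstranded. SPNCRNA.622 was as high as sty1 in 4 libraries, 1 of them labelled stranded, and at 224 to 931 counts in the others.

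Beyond Sty1, the effectors and 1 phosphatase made up the group that rose. In glucose-starved medium against glucose, 4 of the 8 genes were called higher and none lower in each isolate. Of all tested genes 15.8% were called higher and 12.1% lower in Wilmar-P, and 15.3% higher and 21.1% lower in Wilmar-A. The 8 genes had a median log2 fold change of 1.54 (Wilmar-P) and 1.82 (Wilmar-A), beside -0.0001 and -0.20 over all tested genes. The same 4 genes were called in both isolates.

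atf1 (SPBC29B5.01, chromosome II, 1546194 to 1549862, plus strand, in 2 exon parts) encodes the bZIP factor that Sty1 phosphorylates. It was at 49.4 and 76.7 CPM in Wilmar-A and 31.2 and 55.8 CPM in Wilmar-P in glucose, and at 414 and 472 CPM in Wilmar-A and 433 and 343 CPM in Wilmar-P when starved. The lowest starved library was thus several-fold above the highest glucose library. Starvation changed atf1 by a log2 fold change of 2.81 (SE 0.29, 7.03-fold, adjusted p = 7.65e-05 by edgeR) in Wilmar-A and 2.72 (SE 0.31, 6.61-fold, adjusted p = 0.000134) in Wilmar-P. atf1 shares 61 bases with the non-coding gene SPNCRNA.1441 on the same strand, which had 0 to 24 counts.

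pcr1 (SPAC21E11.03c, chromosome I, 4252142 to 4253622, minus strand) encodes the bZIP partner of Atf1. It was at 41.6 and 57.8 CPM in Wilmar-A and 42.9 and 42.3 CPM in Wilmar-P in glucose, against 296 and 389.6 CPM in Wilmar-A and 384 and 226 CPM in Wilmar-P when starved. All 4 starved libraries exceeded every other library. For pcr1 the log2 fold change was 2.79 (SE 0.34, 6.90-fold, adjusted p = 0.000155 by edgeR) in Wilmar-A and 2.57 (SE 0.37, 5.92-fold, adjusted p = 0.000482) in Wilmar-P. Over the 8 group means the log2 levels of atf1 and pcr1 had a Pearson r of 0.98, a description of 8 points that share their libraries.

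srk1 (SPCC1322.08, chromosome III, 1301970 to 1305468, plus strand, in 2 exon parts) encodes a kinase that Sty1 activates and that restrains the mitotic inducer Cdc25. Its level was 47.2 and 61.2 CPM in Wilmar-A and 44.5 and 40.1 CPM in Wilmar-P in glucose, and 459.6 and 791 CPM in Wilmar-A and 519.7 and 471 CPM in Wilmar-P when starved. No library outside the starved groups exceeded 64.0 CPM. This was a log2 fold change of 3.53 (SE 0.33, 11.5-fold, adjusted p = 4.45e-05 by edgeR) in Wilmar-A and 3.37 (SE 0.36, 10.3-fold, adjusted p = 9.02e-05) in Wilmar-P. mug150 lies on the opposite strand over 605 bases of srk1, with 44 to 532 counts in any library, against 5514 to 8741 counts of srk1 in the starved libraries. In the other libraries srk1 had 383 to 1019 counts. The count of mug150 reached 97.7% of that of srk1 in replicate 1 of deficient Wilmar-P, labelled unstranded.

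pyp1 (SPAC26F1.10c, chromosome I, 5161474 to 5163360, plus strand) and pyp2 (SPAC19D5.01, chromosome I, 5202366 to 5205202, plus strand) encode the tyrosine phosphatases of Sty1. pyp1 was at 91.9 and 106.8 CPM in Wilmar-A and 86.7 and 109 CPM in Wilmar-P in glucose, and at 166 and 194 CPM in Wilmar-A and 199 and 120.4 CPM in Wilmar-P when starved. The starved libraries were above the glucose libraries in both isolates. For pyp1 it came to a log2 fold change of 0.86 (SE 0.24, adjusted p = 0.0155 by edgeR) in Wilmar-A, past the p-value threshold but not the size threshold, and 0.50 (SE 0.26, adjusted p = 0.166) in Wilmar-P.

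pyp2 was at 41.0 and 18.2 CPM in Wilmar-A and 45.7 and 10.2 CPM in Wilmar-P in glucose, so its replicates differed more than those of any other pathway gene there. When starved it was at 407 and 969 CPM in Wilmar-A and 544 and 269.6 CPM in Wilmar-P. The groups did not overlap, and pyp2 had the largest log2 fold change of the 8 genes in both isolates. It was 4.54 (SE 0.74, 95% interval 2.91 to 6.16, 23.2-fold, adjusted p = 0.000816 by edgeR) in Wilmar-A and 4.41 (SE 0.83, 2.57 to 6.26, 21.3-fold, adjusted p = 0.00233) in Wilmar-P, placing pyp2 64th and 119th from the top of the tested genes. For Wilmar-P it was 3.15 without replicate 2 in glucose, with an adjusted p of 0.0565, and 5.31 with libraries labelled stranded only. pyp2 overlaps emc10 on the opposite strand by 48 bases, and emc10 had 175 to 301 counts in the 4 starved libraries, against 3153 to 10704 for pyp2. In the other libraries emc10 had 393 to 1351 counts, against 141 to 992 for pyp2. The share of opposite-strand reads in these low pyp2 counts was not tested.

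**Figure D3:**
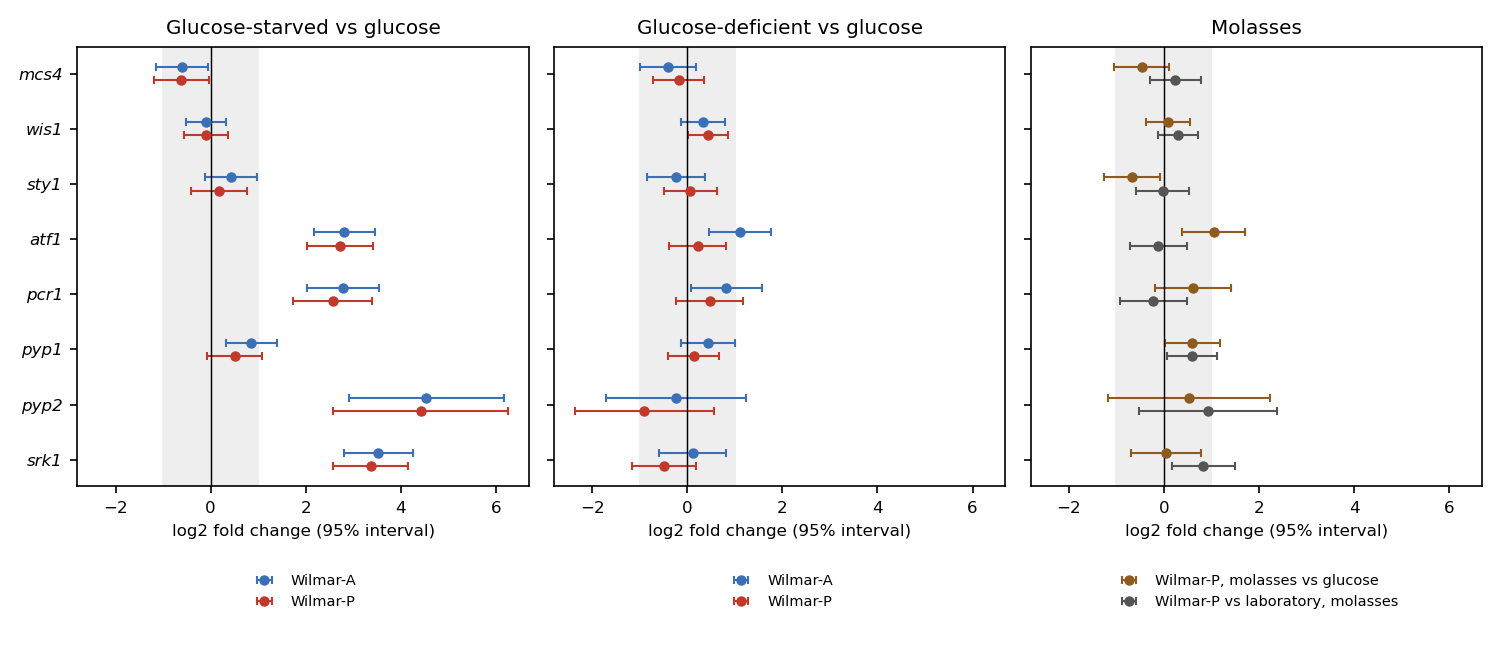
Fitted log2 fold change of each pathway gene with its 95% interval, for glucose-starved against glucose (left), glucose-deficient against glucose (middle) and the molasses comparisons (right); the grey band marks changes of 1 or less in size. In starved cells the intervals of atf1, pcr1, pyp2 and srk1 lay wholly above 1 in both isolates, from pcr1 in Wilmar-P (1.74 to 3.39) to pyp2 in Wilmar-P (2.57 to 6.26).

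The ratio of pathway genes within a library does not depend on the scaling between libraries. The pyp2 to pyp1 ratio of CPM per kb was 1.63 and 3.32 in starved Wilmar-A and 1.82 and 1.49 in starved Wilmar-P, and 0.0563 to 0.351 in the other 12 libraries. In the starved libraries alone pyp2 therefore exceeded pyp1. The srk1 to sty1 ratio was 0.508 to 0.720 in the starved libraries and 0.0363 to 0.110 in the others. The atf1 to pcr1 ratio stayed below 1 throughout, at 0.593 to 0.800 in the starved libraries and 0.331 to 0.832 in the others, and the 2 lowest values came from the Wilmar-P libraries labelled unstranded.

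**Figure D4:**
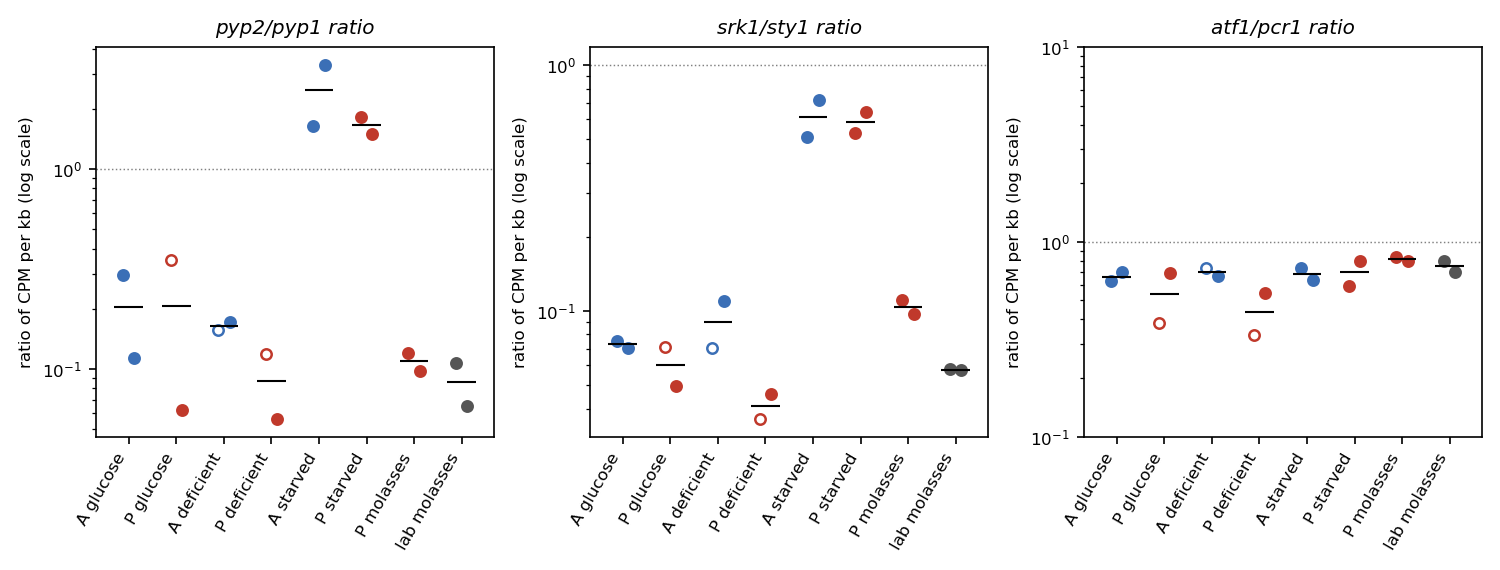
Ratio of CPM per kb of pyp2 to pyp1, srk1 to sty1 and atf1 to pcr1 in each library, on a log axis; colours and open symbols mark strain and labelled library type, lines are group means of the ratio and the dotted line marks a ratio of 1. Ratios of pyp2 to pyp1 passed 1 only in the 4 starved libraries, while ratios of atf1 to pcr1 lay between 0.331 and 0.832 in all 16.

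The promoters of the rising genes are shown because Atf1 and Pcr1 bind the element TGACGT, which in the form ATGACGT is the M26 site. The 1000 bases before the gene start were searched on both strands in the RefSeq annotation of assembly ASM294v3, where every ATGACGT also counts as a TGACGT and a palindromic TGACGTCA counts once on each strand. Gene starts in that annotation were 1546217 for atf1, 5202656 for pyp2 and 1301937 for srk1. They differ from the count table starts given above, and distances are counted from them. Among the pathway genes, atf1, pyp2 and srk1 held the element, and mcs4, wis1, sty1, pcr1 and pyp1 did not within this window. Each line gives 24 bases of the gene's coding strand, 5′ to 3′, with the matched bases in capitals, as TGACGT or as its reverse complement ACGTCA.
atf1, 52 bases before the gene start: gtgatgcaaTGACGTcatctgttt
pyp2, 979 bases before the gene start: agcagagaaTGACGTgaccgtgaa
pyp2, 783 bases before the gene start: gatcttgacACGTCAtgactacat
srk1, 114 bases before the gene start: ggatgcgcaACGTCAccaccatcg
srk1, 56 bases before the gene start: tgatgccaaTGACGTacgttaacg
srk1, 37 bases before the gene start: taacgaaggACGTCAaagtaggca

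The atf1 match (chromosome II, 1546165 to 1546170) is palindromic, so its second match lies 2 bases downstream on the other strand, and both have the M26 form. The pyp2 matches (chromosome I, 5201677 to 5201682 and 5201873 to 5201878) both have the M26 form, as does the srk1 match at 56 bases (chromosome III, 1301881 to 1301886), while the other srk1 matches (1301823 to 1301828 and 1301900 to 1301905) do not. Of 5112 protein-coding genes searched, 761 (14.9%) held TGACGT and 144 (2.8%) held ATGACGT. Among the 702 protein-coding genes called higher in starved than in glucose medium in both isolates the shares were 25.4% and 9.3%. These counts describe letters in a window and no test was made of them. The fourth rising gene, pcr1, had no match. Of the 10 known targets listed further below, gpd1, ctt1, ntp1 and fbp1 held TGACGT in this window. No match was found for tps1, gpx1, hsp9, cta3, ste11 and tms1.

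Starvation was also compared with glucose-deficient medium, which holds the same 3% glycerol and differs by its 0.1% glucose. The starved libraries are the same as above. Again atf1, pcr1, pyp2 and srk1 were called higher in both isolates and no pathway gene was called lower, where 11.7% (Wilmar-P) and 9.41% (Wilmar-A) of tested genes were called higher. In deficient medium pyp2 was at 22.3 and 37.2 CPM in Wilmar-A and 17.1 and 10.1 CPM in Wilmar-P, far below all starved libraries. Its log2 fold change of 4.77 (SE 0.76, adjusted p = 0.00176 by edgeR) in Wilmar-A and 5.32 (SE 0.82, adjusted p = 0.00115) in Wilmar-P ranked 16th and 25th from the top.

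The kinase gene srk1 was at 42.1 and 64.0 CPM in deficient Wilmar-A and 25.3 and 36.8 CPM in deficient Wilmar-P, and its log2 fold change was 3.42 (SE 0.34, adjusted p = 0.000177 by edgeR) and 3.85 (SE 0.35, adjusted p = 6.72e-05). The transcription factor genes changed less. atf1 rose by 1.71 (SE 0.30, adjusted p = 0.00321) in Wilmar-A and 2.51 (SE 0.31, adjusted p = 0.00032) in Wilmar-P on the log2 scale, and pcr1 by 1.97 (SE 0.35, adjusted p = 0.00321) and 2.1 (SE 0.36, adjusted p = 0.0020). The call was lost for atf1 in Wilmar-A without replicate 2 in deficient medium (1.61, adjusted p = 0.0703) and for pcr1 in Wilmar-P without replicate 2 in deficient medium (2.18, adjusted p = 0.0595). The other 4 genes had log2 fold changes of -0.43, for wis1, to 0.66, for sty1, in Wilmar-A and of -0.54, for wis1, to 0.37, for pyp1, in Wilmar-P, and none was called.

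Against glucose itself, glucose-deficient medium gave 1 call among the 8 genes. In Wilmar-P none of the 8 genes was called by edgeR, where 2.13% of tested genes were called, and none by DESeq2. At an unadjusted p under 0.05 by edgeR was 1 of the 8, wis1, and 1208 of the 6662 tested genes. Log2 fold changes in Wilmar-P were -0.90 (95% interval -2.37 to 0.57) for pyp2 and -0.49 (-1.15 to 0.18) for srk1. They were 0.44 for wis1 and 0.47 for pcr1. Those of mcs4, sty1, pyp1 and atf1 lay between -0.17 and 0.22. In Wilmar-A 1 gene was called, atf1, where 5.57% of tested genes were called higher. atf1 was at 70.9 and 130.4 CPM in deficient Wilmar-A, against 49.4 and 76.7 CPM in glucose, so the groups overlapped. Its log2 fold change was 1.10 (SE 0.29, adjusted p = 0.0391 by edgeR). The call ended under 14 of 26 alternatives, among them treating replicate 1 in glucose as unstranded (0.64, adjusted p = 0.107) and leaving that replicate out (0.81, adjusted p = 0.225). Of the other genes in Wilmar-A, pcr1 was at 51.1 and 102.6 CPM in deficient medium and 41.6 and 57.8 CPM in glucose, which overlapped (0.82, 95% interval 0.07 to 1.56, adjusted p = 0.117). The remaining 6 had log2 fold changes of -0.41, for mcs4, to 0.44, for pyp1, with pyp2 at -0.23 (-1.70 to 1.23). Scaled to total counts, as a ratio of group means, some small changes took the other direction. These were sty1 (-0.18) and pyp1 (-0.10) in Wilmar-P, and srk1 (-0.32) and pyp1 (-0.03) in Wilmar-A. Such a ratio also leaves out the strandedness term. For srk1 in Wilmar-A the TMM-normalized group means were already lower in deficient medium, 53.1 against 54.2 CPM. By the interaction test, the change from glucose to deficient medium was not called different between the isolates for any of the 8 genes. Of all tested genes 0% were called by edgeR, 438 had an unadjusted p under 0.05 and DESeq2 called 16. That count of 0 became 740 without replicate 2 of Wilmar-A in glucose, which leaves the library with the high share of non-coding RNA alone in its group, and 0 of the 8 pathway genes were called there. Over the 8 genes the difference between the isolates was -0.88 (95% interval -1.78 to 0.01), for atf1, to 0.30, for sty1, on the log2 scale.

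Molasses was compared in Wilmar-P with glucose and with starvation. Against glucose none of the 8 genes was called, where 1.2% of tested genes were called. At an unadjusted p under 0.05 by edgeR were 3 of the 8 genes, and 861 of the 6662 tested genes. atf1 stood at 126 and 118 CPM on molasses, above both glucose libraries at 31.2 and 55.8 CPM, with a log2 fold change of 1.05 (SE 0.30, adjusted p = 0.147 by edgeR). DESeq2 called it (1.04, adjusted p = 0.0362), and it was called when replicate 1 of Wilmar-A in glucose was treated as unstranded (1.10, adjusted p = 0.029). pcr1, at 79.6 and 77.8 CPM, and pyp1, at 151 and 190 CPM, also lay above the glucose libraries, with log2 fold changes of 0.61 (adjusted p = 0.512) and 0.60 (adjusted p = 0.370). pyp2, at 27.4 and 27.8 CPM, and srk1, at 53.4 and 46.1 CPM, had log2 fold changes of 0.53 (95% interval -1.17 to 2.24) and 0.05 (-0.68 to 0.78). For mcs4 and wis1 they were -0.47 (adjusted p = 0.494 by edgeR) and 0.09 (adjusted p = 0.904). Scaled to total counts, as a ratio of group means, wis1, srk1 and pyp2 took the other direction, at -0.48, -0.25 and -0.55. The other pathway genes kept theirs, with sty1 at -1.06 and atf1 at 1.02. A ratio of group means also leaves out the strandedness term. For pyp2 the ratio of TMM-normalized group means, molasses to glucose, was already 0.987, so its change of direction is not due to scaling alone.

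Against starved Wilmar-P, the molasses libraries had lower levels of atf1, pcr1, pyp2 and srk1, and these 4 were called, where 17.8% of tested genes were called lower. The starved libraries are the ones compared with glucose above. The log2 fold change was -3.88 (SE 0.72, adjusted p = 0.00148 by edgeR) for pyp2, -3.32 (SE 0.32, adjusted p = 3.37e-05) for srk1, -1.96 (SE 0.33, adjusted p = 0.000854) for pcr1 and -1.67 (SE 0.28, adjusted p = 0.000781) for atf1. pyp1 was at a similar level in the molasses and starved libraries, which overlapped (0.10, 95% interval -0.44 to 0.63). The log2 fold changes of mcs4 and wis1 were 0.15 and 0.20.

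The production isolate and its ancestor were compared in each medium. Between them none of the 8 genes was called in any medium, where 0.135% of tested genes were called in glucose, 0.195% when deficient and 0.285% when starved. Nor was any called over the mean of the 3 media, where 0.6% of tested genes were. At an unadjusted p under 0.05 by edgeR there were 0, 2, 0 and 2 of them, those genes being atf1 and srk1. Of all 6662 tested genes 873, 201, 364 and 735 were under that threshold. DESeq2 called 419, 43, 37 and 141 of all genes in these comparisons. Log2 fold changes of the 8 genes, Wilmar-P against Wilmar-A, ran from -0.64 to 0.18 in glucose, -1.30 to 0.36 in deficient medium, -0.76 to 0.12 in starved medium and -0.90 to 0.20 over the mean. The share called in glucose rests on 9 genes and that over the mean on 40, which became 1017 and 512 without replicate 2 of Wilmar-A in glucose, where still 0 of the 8 were called. Without single libraries the first ran from 7 and the second from 20, the latter without replicate 2 of deficient Wilmar-P. atf1 was at 31.6 and 74.1 CPM in deficient Wilmar-P and 70.9 and 130.4 CPM in deficient Wilmar-A, which overlapped, with a log2 fold change of -0.99 (SE 0.27, unadjusted p = 0.00449 and adjusted p = 0.544 by edgeR). Over the 3 media it was -0.43 for both atf1 (adjusted p = 0.384 by edgeR) and srk1 (adjusted p = 0.421). In deficient medium srk1 was at 25.3 and 36.8 CPM in Wilmar-P and 42.1 and 64.0 CPM in Wilmar-A, which did not overlap, with a log2 fold change of -0.77 (SE 0.30, adjusted p = 1 by edgeR). pyp2 there had a log2 fold change of -1.30 (SE 0.67, adjusted p = 1), and over the 3 media of -0.90 (95% interval -1.82 to 0.03, adjusted p = 0.452), so that the interval reaches beyond a 2-fold difference.

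The starvation responses of the isolates were set against each other by the interaction term. The difference, Wilmar-P minus Wilmar-A, was -0.35 to -0.0011 on the log2 scale for the 8 genes and none had an unadjusted p under 0.05. For srk1 it was -0.16 (95% interval -1.14 to 0.82), for atf1 -0.09 (-0.97 to 0.80), for pcr1 -0.22 (-1.27 to 0.83) and for pyp2 -0.12 (-2.32 to 2.08). For pyp1 it was -0.35, for sty1 -0.25, for mcs4 -0.01 and for wis1 -0.0011. Differences up to the ends of these intervals were not excluded with 2 libraries a group. Over all tested genes 0% were called by edgeR, with 421 at an unadjusted p under 0.05 and 17 called by DESeq2. Without replicate 2 of Wilmar-A in glucose 643 were called, 0 of the 8 pathway genes among them.

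On molasses, Wilmar-P was set beside the laboratory strain, a difference in strain background as well as in history. At an unadjusted p under 0.05 by edgeR were 2 of the 8 genes, and 1051 of the 6662 tested genes. None of the 8 was called, where 3.11% of tested genes were called. The 207 genes behind that share became 31 to 617 when 1 library was left out, lowest without replicate 2 of Wilmar-P on molasses and highest without replicate 1 of the laboratory strain, with 0 of the 8 genes called in each case. srk1 was at 53.4 and 46.1 CPM in Wilmar-P and 32.8 and 23.3 CPM in the laboratory strain, with a log2 fold change of 0.83 (SE 0.30, adjusted p = 0.214 by edgeR). pyp1, at 151 and 190 CPM against 109 and 118 CPM, had 0.59 (SE 0.24, adjusted p = 0.270), and pyp2, at 27.4 and 27.8 CPM against 17.5 and 11.5 CPM, had 0.93 (SE 0.65, adjusted p = 0.523). None of these 3 genes passed the test. Log2 fold changes of the other pathway genes were -0.02 for sty1, -0.12 for atf1, -0.22 for pcr1, 0.24 for mcs4 and 0.30 for wis1. Scaled to total counts, as a ratio of group means, mcs4 and wis1 took the other direction, at -0.10 and -0.08. The other pathway genes kept theirs.

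The neighbours of the pathway were counted as 2 lists, both chosen with earlier results of these data known. The first held 26 genes upstream of the pathway or on side branches. In starved against glucose medium 6 rose and 1 fell in Wilmar-P, and 7 rose and 2 fell in Wilmar-A, with median log2 fold changes of 0.32 and 0.48. Over all tested genes 15.8% rose and 12.1% fell in Wilmar-P, and 15.3% rose and 21.1% fell in Wilmar-A. The PP2C phosphatase gene ptc1, whose product acts against the pathway, rose by 2.39 (adjusted p = 0.000434 by edgeR) in Wilmar-P and 2.43 (adjusted p = 0.000196) in Wilmar-A on the log2 scale. The phosphotransfer protein gene mpr1, upstream of Mcs4, rose by 1.62 (adjusted p = 0.000284) and 1.70 (adjusted p = 0.00011), from 78.6 to 111 CPM in the glucose libraries to 264 to 345 CPM in the starved libraries. csx1, for an RNA-binding protein that stabilizes atf1 mRNA, rose by 1.65 and 1.54, and cip1, for a partner of Csx1, by 1.59 and 1.51, the first of which was not called without replicate 2 of Wilmar-P in glucose (1.44, adjusted p = 0.0517). The MAP kinase kinase kinase genes wis4 and win1 were not called in any comparison, with wis4 at 60.1 to 73.2 CPM in glucose and 72.5 to 77.4 CPM in starved libraries. win1 was at 100.5 to 122 CPM in glucose, 97.6 to 124 CPM in starved and 153 to 215 CPM in deficient libraries. Deficient libraries did not overlap those in glucose, with log2 fold changes of 0.91 (adjusted p = 0.063 by edgeR) in Wilmar-A and 0.64 (adjusted p = 0.266) in Wilmar-P.

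The second list held 10 genes known as targets of Sty1 and Atf1. In starved against glucose medium 9 rose and 1 fell in Wilmar-P and 8 rose in Wilmar-A, with median log2 fold changes of 3.32 and 3.15, beside the shares of all tested genes given for the first list. Without replicate 2 of Wilmar-P in glucose 6 of the 10 were called in that isolate. The largest rises were those of fbp1, for the fructose bisphosphatase of gluconeogenesis (5.90 in Wilmar-P and 5.57 in Wilmar-A), and ctt1, for catalase (5.29 and 5.05). The small heat shock gene hsp9 (4.44 and 4.08) and the glutathione peroxidase gene gpx1 (4.06 and 3.98) followed. The gene that fell in Wilmar-P, named after its values were seen, was ste11, for the transcription factor of mating (-1.15). That call was lost without replicate 2 in glucose (-0.47, adjusted p = 0.565) and without either starved library. In glucose-deficient medium 3 of the 10 rose in Wilmar-P and 6 in Wilmar-A, led in both by fbp1 (5.12 and 5.54), where 2.13% of all tested genes were called in either direction in Wilmar-P and 5.57% were called higher in Wilmar-A. These counts fell to 0 in Wilmar-P without replicate 2 in glucose or without either deficient library, and in Wilmar-A to 0 without replicate 2 in deficient medium and to 1 without replicate 1 in glucose. On molasses all 10 were called lower than in starved Wilmar-P, where 17.8% of tested genes were called lower. The starved libraries in it are those compared with glucose above.

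**Figure D5:**
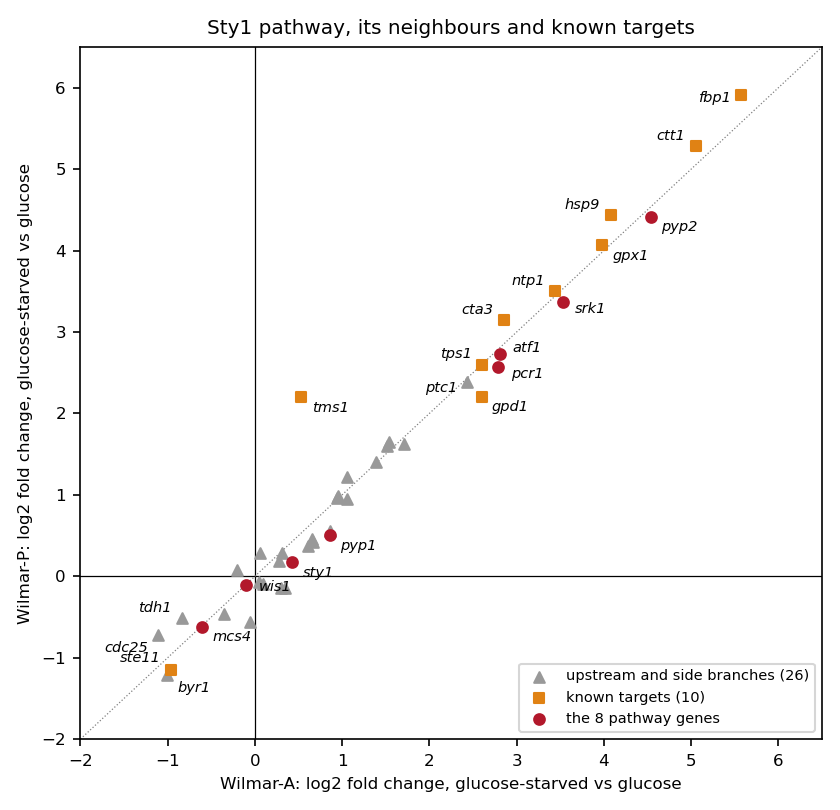
Log2 fold change in glucose-starved against glucose medium in Wilmar-A (horizontal) and Wilmar-P (vertical) for the 8 pathway genes (circles), 26 upstream and side-branch genes (triangles) and 10 known targets (squares); the dotted line marks equal change. The 4 rising pathway genes, at 2.57 to 4.54, lay among the known targets, while mcs4, wis1, sty1 and pyp1 lay between -0.62 and 0.86.

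The genes whose pattern was most like each pathway gene were taken as the 3 protein-coding genes with the highest Pearson r of log2 level over the 8 group means, points that share their libraries. For srk1 these were cgs1 (0.998), for the regulatory subunit of cAMP-dependent protein kinase, SPBC25B2.03 (0.997) and pyp2 (0.997). For pyp2 they were srk1 (0.997), cgs1 (0.995) and SPAC4G9.22 (0.992). Thus pyp2 and srk1 named each other, which follows in part from both being high only in the starved groups. For atf1 they were the catalase gene ctt1 (0.998), puf3 (0.996) and SPBC1105.13c (0.992), and for pcr1 they were ptc1 (0.997), SPAC1687.07 (0.993) and itt1 (0.993). The genes most like the other 4 were cdm1, pcd1 and sib2 for sty1 (0.953 to 0.983), pab2, ppk32 and cdc12 for mcs4 (0.927 to 0.987), SPAC1783.01, tsc2 and mtr10 for wis1 (0.982 to 0.988), and SPBC1289.14, trp4 and dsk2 for pyp1 (0.966 to 0.982), none of which is a pathway gene or a listed target.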

How the data were processed

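RNA was ribosomal RNA-depleted total RNA. The authors deposited raw counts per gene; per the labels and the study's methods, reads were trimmed with cutadapt 1.9.1, aligned with TopHat2 2.1.1 to ASM294v2 and counted with featureCounts 1.5.2, reads in overlapping genes being counted for each gene and strand used only for stranded libraries. Gene names came from RefSeq for 6845 of 7019 identifiers. Counts were fitted with edgeR 4.0.16 in R 4.3.3 (filterByExpr, TMM, quasi-likelihood test) over all 16 libraries, with 1 term per group and 1 for labelled strandedness (7 residual degrees of freedom); standard errors and 95% intervals came from the F statistic. DESeq2 1.42.0 (Wald test) was an alternative. The fits were tested on simulated data. The members and lists were chosen with earlier results of these data known. The naming rule was all 8 genes in every comparison, by value or range, and in each list at most 4 called genes whose libraries did not overlap, by size of change, with wis4, win1 and mpr1 by value. Alternatives were other scaling, filters, tests and strandedness codings, a replicate block and leaving out each library. Log2 levels for likeness used a pseudocount of 0.5. The mating types in the labels could not be checked, since the named mating-type genes (54 to 453 counts for the Mc copies) are near-identical copies.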

Additional observations from a re-analysis of the deposited data

How the results depend on the processing

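Over 26 alternatives 3100 of 3120 values of the 8 genes kept their side of the threshold, and 0 called values changed sign. Most of these values were not called in the main fit, and many alternatives left out a library outside the comparison. The count therefore says little about the called values. Calls were lost 17 times, 14 of them for atf1 in Wilmar-A in deficient against glucose medium, and gained 3 times. In Wilmar-A, the 1 gene called in glucose-deficient against glucose medium (atf1) became 0 without the strandedness term, with replicate 1 in glucose as unstranded, with libraries labelled stranded only, also without that replicate (an alternative chosen after seeing the data) and with the replicate block, and leaving out single libraries gave 0 to 1. In Wilmar-P, the 0 called on molasses against glucose became 1 with DESeq2 and with that replicate as unstranded. sty1 on molasses against starved medium reached -1.03 (adjusted p = 0.0205 by edgeR) without replicate 2 of starved Wilmar-P.

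Replicate numbers recur across groups, but the labels do not pair them. Correlations of replicate differences over 5073 coding genes ran from -0.21 to 0.94 between groups. Among the glucose and deficient groups of both isolates they were 0.765 to 0.942. In pairs with a starved or molasses group they were at most 0.324. The source of this shared difference was not tested. For comparisons of media the replicate block was 1 term over all groups, which does not separate these 2 sets of groups. The replicate block took atf1 in Wilmar-A to 1.12 (adjusted p = 0.0725 by edgeR) and changed no other call of the 8 genes. Counts over all tested genes and the lists moved more. Against glucose in Wilmar-A, deficient medium had 761 genes called, 7 to 1862 when 1 library was left out (lowest without replicate 2 in deficient medium, highest without replicate 2 in glucose) and 69 to 1175 under the other alternatives. In Wilmar-P these were 142, 15 to 242 and 31 to 292, and on molasses 80, 20 to 155 and 34 to 225, both lowest without replicate 2 of Wilmar-P in glucose and highest without replicate 2 of Wilmar-A in glucose. Against the laboratory strain on molasses they were 207, 31 to 617 and 111 to 521. Between the isolates, 13 (deficient) and 19 (starved) became 6 to 24 and 6 to 28 when 1 library was left out. Counts of starved against glucose medium fell to 887 (Wilmar-P) without replicate 2 in glucose and to 1557 (Wilmar-A) without starved replicate 2. Those of starved against deficient medium fell to 379 and 479, each without that isolate's deficient replicate 2. The interaction counts of 0 ran up to 740 (deficient) and 643 (starved) when 1 library was left out and up to 16 and 17 otherwise. With replicate 1 of Wilmar-A in glucose treated as unstranded the common dispersion fell from 0.1005 to 0.0447. In starved against glucose medium all 10 targets were called in Wilmar-P, and 6 to 10 when a library was left out. With 2 libraries a group the precision limits small changes: the widest intervals were those of pyp2.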

Other observations

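Genes of the mating MAP kinase cascade, which were on the list of side branches, were called lower in Wilmar-P on molasses, where none of the 8 Sty1 pathway genes was called against glucose or the laboratory strain. They were byr1 and spk1, while byr2, for the MAP kinase kinase kinase of that cascade, was not called (0.19 against the laboratory strain, adjusted p = 0.759 by edgeR, and 0.04 against glucose, adjusted p = 0.975). byr1, for the MAP kinase kinase of the mating pathway, was at 3.55 and 5.4 CPM in Wilmar-P on molasses, against 50.2 and 76.9 CPM in the laboratory strain there and 46.3 and 93.3 CPM in Wilmar-P in glucose (values from lowest to highest). The log2 fold change was -3.83 (adjusted p = 0.000475 by edgeR) against the laboratory strain and -4.08 (adjusted p = 0.00157) against glucose. spk1, for the MAP kinase of that pathway, was at 8.02 and 8.12 CPM, against 26.1 and 31.3 CPM in the laboratory strain (-1.83, adjusted p = 0.00816). ste11 was at 3.63 and 5.64 CPM, against 29.9 and 34.2 CPM (-2.79, adjusted p = 0.00241). Against the laboratory strain, byr1 was called with any 1 library left out, the call of spk1 was lost without either Wilmar-P molasses library (adjusted p = 0.102 and 0.117) and that of ste11 without replicate 2 (-2.51, adjusted p = 0.053). The strains also differ in mating type, which cannot be told apart from strain here. In glucose-deficient medium spk1 rose in both isolates, by 2.61 in Wilmar-P and 2.93 in Wilmar-A on the log2 scale (adjusted p = 0.00166 and 0.00125), a call lost without replicate 2 of deficient Wilmar-A (adjusted p = 0.0738) and, in Wilmar-P, without replicate 1 in deficient medium (0.0513) or replicate 2 in glucose (0.0502).

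tdh1 encodes a glyceraldehyde phosphate dehydrogenase that binds Mcs4. From lowest to highest, it was at 14250 and 14650 CPM in Wilmar-P on molasses and 2027 and 2645 CPM in glucose. It was at 8969 and 10300 CPM in the laboratory strain on molasses and 3391 and 7303 CPM in deficient Wilmar-P. In Wilmar-P, molasses against glucose was called (2.09, adjusted p = 0.0446 by edgeR). That call was lost under most alternatives that left out a library, with values of 1.49 to 2.45 where it was lost and an adjusted p of up to 0.685. It was also lost with the replicate block (2.17, adjusted p = 0.0734), with DESeq2 size factors (adjusted p = 0.0615) and with libraries labelled stranded only (2.47, adjusted p = 0.149). cta3, a target gene for a P-type ATPase, was the only listed gene called between the isolates, lower in Wilmar-P over the mean of 3 media (-2.23, adjusted p = 0.0028, and 0.0545 without replicate 2 of Wilmar-P in deficient medium).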
